A study of Mus musculus with 6 samples.

Results

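The matrix metalloproteinases (MMPs), their tissue inhibitors (TIMPs), the ADAMTS proteases and the ADAMTS-like proteins were examined by RNA-seq in maxillary processes of mouse embryos at E12.5. Members were the protein-coding genes of the count files whose mouse symbol is Mmp, Timp, Adamts or Adamtsl followed by the family's number. Of the 51 genes with such a symbol, 1, the polymorphic pseudogene Mmp1a, is not protein-coding, which left 50 of the 53801 genes in the files. They comprise 22 MMPs, 4 TIMPs, 19 ADAMTS genes and 5 ADAMTS-like genes. In all, 38 of the 50 passed the filter on low counts and were tested between genotypes, and 12 did not. The count table holds 3 samples of wild-type C57BL/6J embryos (WT) and 3 of Wnt1cre; Rosa26Dlx2/- embryos (Dlx2OE), all of the same stage and tissue. The Dlx2OE embryos carry a Flag-tagged Dlx2 behind the CAG promoter and a stop cassette at the Rosa26 locus, and a Cre driven by Wnt1, which removes the stop in neural crest and its descendants. Epithelial, endothelial, blood and mesoderm-derived cells of the dissected tissue are outside that lineage, and the whole prominence was sequenced. The labels describe the 3 samples of a genotype as biological replicates, and give neither the Cre status of the WT embryos nor the number of embryos in a sample.

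MMPs are zinc proteases, most of them secreted as inactive precursors, which cleave collagens, basement membrane and many signalling proteins. TIMPs bind their active sites and inhibit them, and the membrane-bound Mmp14 together with Timp2 activates the Mmp2 precursor at the cell surface. ADAMTS proteases are secreted and bind the matrix through thrombospondin repeats. Some of them cleave versican and other hyaluronan-binding proteoglycans and others trim procollagens, whereas ADAMTS-like proteins share such repeats without having a protease domain, and several bind fibrillin microfibrils. In the face these genes are studied in the remodelling of palatal shelf and branchial arch matrix.

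Gene counts summed to 30332754 to 31308813 read pairs per WT sample and to 26155500 to 30570784 per Dlx2OE sample. Levels are counts scaled to a common library size by the TMM method (CPM), and 3 counts, the smallest level taken as detectable, was 0.0955 to 0.111 CPM. Read pairs outside annotated genes made up 5.03% to 5.43% in WT, 5.75% and 7.81% in Dlx2OE samples 1 and 2, and 14.7% in Dlx2OE sample 3, which stands apart. Dlx2 itself had 1255, 1056 and 1409 counts in WT and 3521, 4102 and 3336 counts in Dlx2OE (log2 fold change 1.60, edgeR adjusted p = 0.00241), in the direction of the labels. All 10 markers of facial mesenchyme were detected in every group, with sums of 1691 to 2023 CPM in WT and 2115 to 2581 CPM in Dlx2OE. Marker sums of macrophages were 114 to 136 CPM in WT and 74.6 to 84.8 CPM in Dlx2OE, without overlap, and those of erythroid cells were 3326 to 4442 CPM against 2006 to 2597 CPM, also without overlap. Marker sums of neurons ranged from 110 to 403 CPM in WT and from 217 to 1731 CPM in Dlx2OE. Krt8 and Krt18 of epithelium, Emcn of endothelium, Rgs5 of pericytes and Col9a3 of cartilage fell (edgeR), and the summed levels of their lists overlapped between genotypes. Log2 fold changes were negative for 10 of 10 tested endothelial markers and 7 of 9 of pericytes and smooth muscle. They were negative for 7 of 8 tested markers of cartilage, 8 of 9 of skeletal muscle and 9 of 10 of erythroid cells. The epithelial list was mixed, with 6 markers negative and 4 positive, among them Krt5 at a log2 fold change of 1.91 without overlap (edgeR adjusted p = 0.0792). In whole tissue, fewer cells of a type and less RNA per cell cannot be told apart.

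Levels of different genes were compared as TMM-scaled CPM per kilobase of exon (FPKM). Mmp2, the gelatinase that degrades denatured collagen and basement membrane, had the highest level in WT at 69.2, 65.7 and 73.5 FPKM, or 69.5 ± 3.90 (SD, n = 3). Timp2, the inhibitor that also takes part in Mmp2 activation, followed at 40.7 ± 10 FPKM. Mmp11, a stromelysin-type protease made by mesenchyme and already active when secreted, had 34.6 ± 4.69 FPKM, and Mmp14 had 33.4 ± 4.19 FPKM (SD, n = 3 each). Timp2, Mmp11 and Mmp14 did not differ beyond their spread, and with the longest transcript as the length Mmp14, at 61.4 FPKM, ranked above Timp2 and Mmp11. Mmp2 stayed first with that length at 76.1 FPKM. Below these 4, the next 3 genes were Timp1 at 10.7 ± 2.68, Mmp15 at 10.3 ± 1.71 and Adamts10 at 10.2 ± 0.545 FPKM, which were not separated by their spread. The other tested MMPs and ADAMTS genes lay between 0.106 FPKM for Mmp24 and 8.73 FPKM for Adamts1, and the ADAMTS-like genes between 0.244 and 1.49 FPKM.

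**Figure D1:**
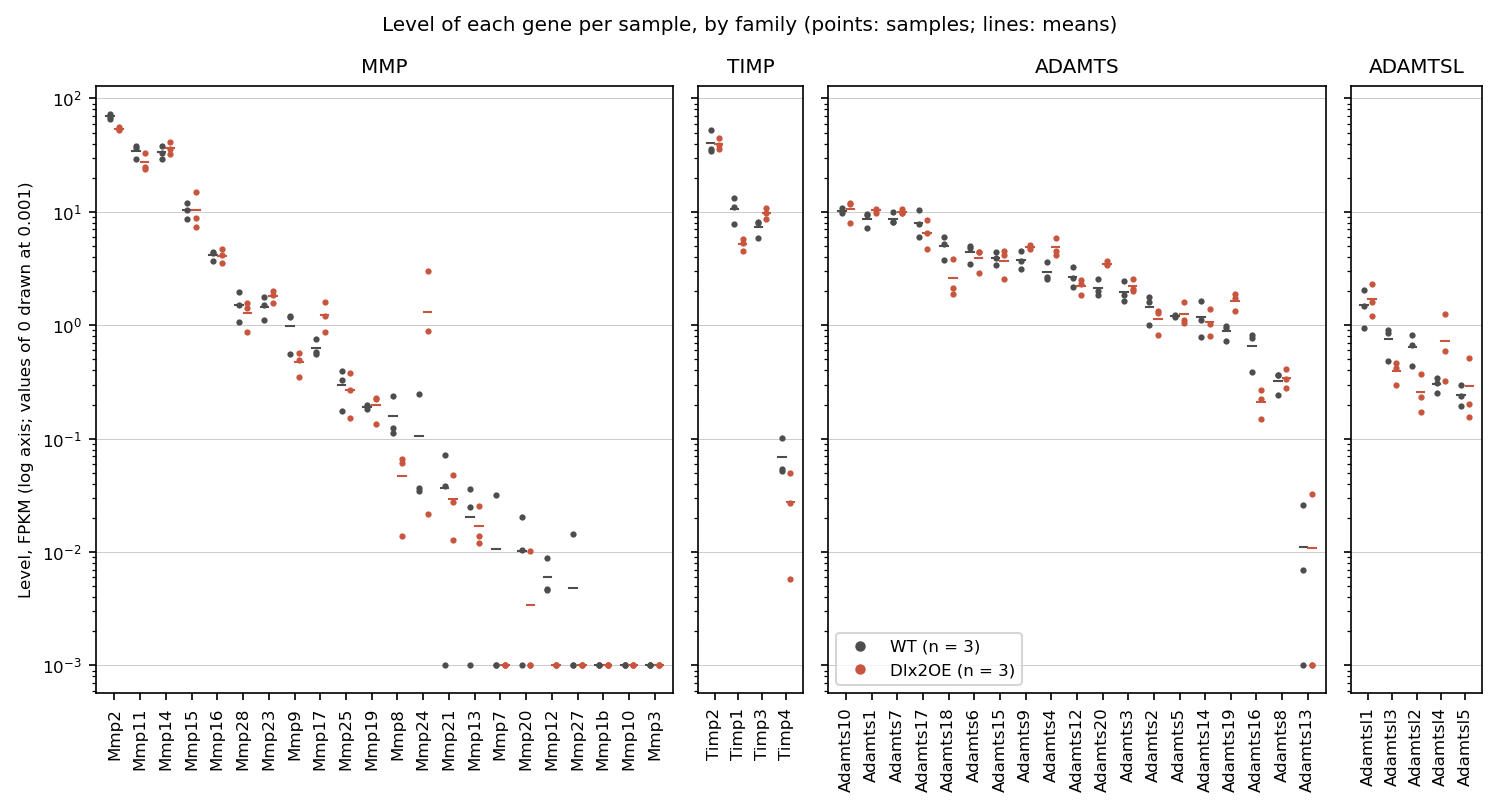
Level of each of the 50 genes in each sample as FPKM on a log axis, by family and in order of the WT mean. Dark points are the 3 WT samples, red points the 3 Dlx2OE samples and short lines the means, and values of 0 are drawn at 0.001. Mmp2, Timp2, Mmp11 and Mmp14 stand above 20 FPKM in all samples, and the 12 genes that the filter on low counts left out have WT means of at most 0.158 FPKM.

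Transcripts of 3 proteases made up most of the MMP signal. Mmp2, Mmp11 and Mmp14 together held 87.9%, 87.6% and 86.7% of the summed MMP level in WT samples and 88.7%, 85.8% and 79.8% in Dlx2OE samples. Timp2 held 68.7% ± 7.39 of the summed TIMP level in WT and 72.5% ± 4.12 in Dlx2OE (SD, n = 3 each). The ratio of summed TIMP to summed MMP levels was 0.381, 0.340 and 0.397 in WT and 0.399, 0.388 and 0.393 in Dlx2OE. The WT and Dlx2OE ratios overlap, so the balance of inhibitor to protease transcripts did not separate the genotypes.

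A further set of MMPs was silent or nearly so. All 9 members of the MMP cluster on chromosome 9 (7272514 to 7699585, GRCm38, 427072 bp) were left out of the edgeR test by its filter on low counts. This cluster holds the collagenases Mmp1b, Mmp8 and Mmp13, the stromelysins Mmp3 and Mmp10, the matrilysin Mmp7, the macrophage elastase Mmp12, the enamel protease Mmp20, and Mmp27. Its 9 genes had 64 counts over the 6 samples together, of which 45 came from Mmp8, the neutrophil collagenase, and Mmp1b, Mmp3 and Mmp10 had no count. By contrast, 12 of the 13 MMPs outside the cluster were tested, and the exception was Mmp21. Some members beyond the naming rule are given with counts here, Mmp12 and Mmp13, because they complete the account of the cluster, and they were chosen after their values were seen. Mmp8 had 8, 9 and 18 counts in WT and 1, 5 and 4 counts in Dlx2OE, all WT samples above all Dlx2OE samples (DESeq2 log2 fold change -1.77, adjusted p = 0.260), beside the lower macrophage marker sums given above, whose part in the difference was not tested. Mmp12 had 1, 1 and 2 counts in WT and 0 in each Dlx2OE sample, which is at or under the detection level of 3 counts. Mmp13, a collagenase of hypertrophic cartilage and bone, had at most 3 counts in any sample, and Mmp7 had 1 count in all.

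The sequence before the gene start was set beside this split as a description, and its part in the split was not tested. Windows of 250 bases before to 50 bases after the start (RefSeq, GRCm38.p6) were matched for 35 of the 50 genes, among them all 9 genes of the cluster and 23 tested genes. The G and C content of the windows had a median of 42.7% in the cluster, 67.0% in the tested genes and 52.7% in all 32851 windows. For each of 3 genes of the cluster, the 120 bases before the start are shown on the gene's strand, with TGAGTCA (the letters bound by AP-1 factors) or its reverse complement and TATAAA in capitals.
Mmp3 (chr9:7445702-7445821, forward strand): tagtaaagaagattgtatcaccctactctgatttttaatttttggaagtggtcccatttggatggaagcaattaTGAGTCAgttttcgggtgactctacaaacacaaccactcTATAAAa
Mmp10 (chr9:7502222-7502341, forward strand): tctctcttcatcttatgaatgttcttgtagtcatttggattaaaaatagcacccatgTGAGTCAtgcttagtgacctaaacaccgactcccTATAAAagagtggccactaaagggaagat
Mmp13 (chr9:7272394-7272513, forward strand): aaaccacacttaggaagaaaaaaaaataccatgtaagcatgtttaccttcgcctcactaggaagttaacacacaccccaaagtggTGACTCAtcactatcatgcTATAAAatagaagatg

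The 3 sequences have the same arrangement, with the AP-1 letters before the TATA letters. TGAGTCA was found on either strand in the windows of 6 of the 9 cluster genes and 0 of the 23 tested genes, and in 5.20% of all windows. TATAAA was found in 8 of the 9 and 2 of the 23, and in 13.6% of all windows. All 6 cluster genes with TGAGTCA also had TATAAA, a pair that 0.941% of all windows hold. These 6 are Mmp1b, Mmp3, Mmp7, Mmp10, Mmp12 and Mmp13.

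The expressed genes had another kind of sequence before the start. The same stretch is shown for abundant MMPs and TIMPs outside the cluster and for a protease that rose in Dlx2OE, while Mmp2 had no window in the table used. The starts are those of RefSeq, and for the 3 genes on the reverse strand the stretch lies inside the gene bounds of GENCODE M21. Those bounds begin upstream at 75936496 for Mmp11, 118355740 for Timp2 and 94465418 for Adamts20. Each stretch is on the gene's strand, with GGGCGG (the GC box) or its reverse complement in capitals.
Mmp14 (chr14:54431478-54431597, forward strand): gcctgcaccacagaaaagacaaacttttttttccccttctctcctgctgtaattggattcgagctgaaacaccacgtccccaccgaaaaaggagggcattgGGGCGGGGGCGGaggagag
Mmp11 (chr10:75932503-75932622, reverse strand): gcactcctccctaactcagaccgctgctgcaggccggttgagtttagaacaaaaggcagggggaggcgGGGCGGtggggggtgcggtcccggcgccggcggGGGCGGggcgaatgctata
Timp2 (chr11:118355412-118355531, reverse strand): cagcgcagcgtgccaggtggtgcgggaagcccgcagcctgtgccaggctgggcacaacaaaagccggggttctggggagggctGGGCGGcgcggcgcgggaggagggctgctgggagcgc
Timp1 (chrX:20870046-20870165, forward strand): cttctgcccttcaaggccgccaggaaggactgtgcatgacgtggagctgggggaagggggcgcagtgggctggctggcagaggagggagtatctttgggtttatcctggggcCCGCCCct
Adamts20 (chr15:94404351-94404470, reverse strand): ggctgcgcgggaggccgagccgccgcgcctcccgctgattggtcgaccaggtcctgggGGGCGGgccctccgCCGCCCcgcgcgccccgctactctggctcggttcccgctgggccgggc

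GGGCGG was found in the windows of 21 of the 23 tested genes and 0 of the 9 cluster genes, and in 35.7% of all windows. These counts describe letters in a short window, and binding of a factor was not measured. The 9 cluster genes are neighbours of the same family and not 9 separate cases. The share in all windows is not that of expressed genes alone. In all, 11 strings were searched on both strands. Of the homeodomain core letters, TAATTA was found in the windows of 4 of the 35 genes (5.29% of all windows) and TAATTG in 3 (8%), and Mmp14 and Adamts17 were the tested genes among them. TGANTCA, which contains TGAGTCA, was found in 7 (7.81%), and the ETS core AGGAAG in 14 (35.4%). CTTTGA was found in 5 (16.0%), CTTTGAT, which contains it, in 1 (3.73%), CACGTG in 2 (7.15%) and TGTGGTT in 3 (5.27%).

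The genotypes were compared gene by gene with edgeR's quasi-likelihood test, and p-values were adjusted over all 17514 genes tested. Of the 38 tested members, 2 rose and 2 fell in Dlx2OE at an adjusted p under 0.05. The 2 that rose are 5.26% of the members tested, against 2.99% of all genes, and the 2 that fell are 5.26% against 3.46% of all genes. The proteases Adamts19 and Adamts20 rose, and the protease Adamts16 and the inhibitor Timp1 fell. The study's added threshold of a log2 fold change above 1 or below -1 was applied here to edgeR, while the study used DESeq2. With it, 0 members were upregulated (1.5% of all genes) and 2 were downregulated (1.62% of all genes), Adamts16 and Timp1. At an unadjusted p under 0.05, 15 of the 38 members and 5172 of all genes passed. The median log2 fold change was 0.02 over the members, with 19 positive and 19 negative, and 0.0028 over all genes.

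**Figure D2:**
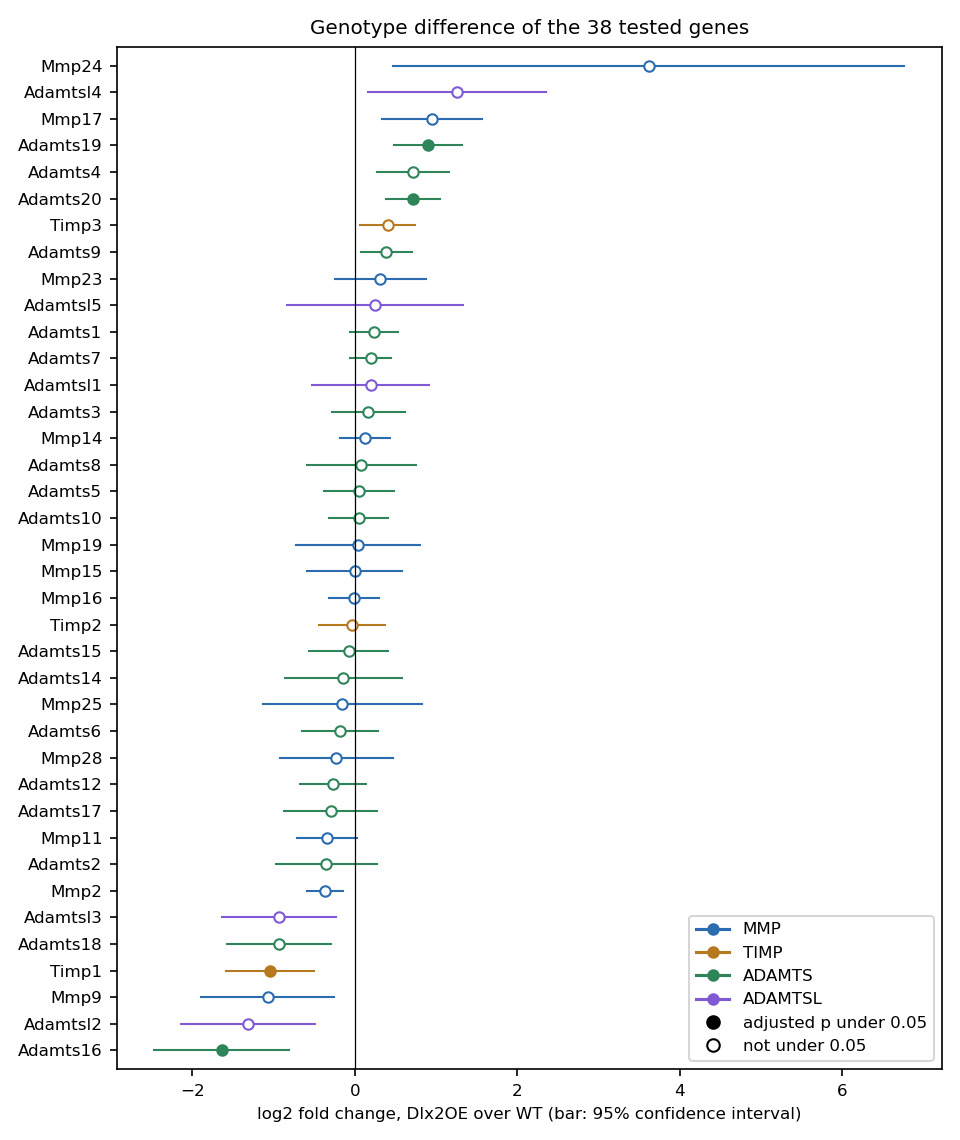
The log2 fold change of each of the 38 tested genes, Dlx2OE over WT, with its 95% confidence interval, in order of size and coloured by family. Filled points passed an adjusted p under 0.05. They are Adamts19 and Adamts20 to the right of 0 and Timp1 and Adamts16 to its left, and the widest interval is that of Mmp24.

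The values of the samples did not overlap between genotypes for 12 of the 38 tested members. All Dlx2OE samples were above all WT samples in 7 of them, Adamts1, Adamts4, Adamts9, Adamts19, Adamts20, Mmp17 and Timp3, or 18.4% of the members tested, and 16.7% of all genes did so. All were below in 5, Adamts16, Adamtsl2, Adamtsl3, Mmp2 and Timp1, or 13.2%, against 17.3% of all genes. These shares lie near those of all genes. DESeq2, the study's tool, gave an adjusted p to 40 members and passed 4 as higher, Adamts4, Adamts19, Adamts20 and Mmp17, where 5.54% of all genes passed. It passed 7 as lower, Adamts16, Adamts18, Adamtsl2, Adamtsl3, Mmp2, Mmp9 and Timp1, where 7.21% of all genes passed. The 4 genes that passed edgeR are among these 11.

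Among the inhibitors, Timp1 fell, and the other TIMPs did not pass. Timp1 (ENSMUSG00000001131, X chromosome, 20870166 to 20874735, forward strand) encodes a secreted inhibitor of most soluble MMPs that is weak against membrane-bound ones such as Mmp14. It had 342, 295 and 217 counts in WT and 119, 159 and 129 counts in Dlx2OE. In scaled values these were 11.7, 9.79 and 6.96 CPM against 4.02, 5.06 and 4.76 CPM, so the lowest WT sample was above the highest Dlx2OE sample. Timp1 was 2.05-fold lower in Dlx2OE (log2 fold change -1.04, SE 0.235, edgeR adjusted p = 0.0427), just past the threshold of -1. The fall of Timp1 stands beside macrophage markers, of which 11 of 12 were lower and C1qa, C1qb and C1qc passed. Most tested markers of erythroid, endothelial, pericyte, cartilage and skeletal muscle cells were also lower. The part of any of these cells in the result was not tested. Of the 6 fits that each left out 1 sample, Timp1 passed only in that without WT sample 3 (adjusted p = 0.0205). Its adjusted p was 0.124 without WT sample 1, 0.155 without WT sample 2, and 0.0509, 0.112 and 0.107 without Dlx2OE samples 1, 2 and 3, always with a negative log2 fold change. After the correction for gene length and GC content Timp1 no longer passed (adjusted p = 0.0717), and its log2 fold change of -0.77 was short of the threshold.

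Timp2 had 133, 139 and 204 CPM in WT and 173, 138 and 152 CPM in Dlx2OE, with overlapping groups. Its log2 fold change was -0.04 (95% interval -0.44 to 0.37, edgeR adjusted p = 0.898), and it turned to 0.02 when libraries were scaled by their size alone. Timp3, which binds to the matrix and also inhibits ADAMTS proteases, had 64.8, 48.2 and 66.5 CPM in WT and 69.9, 79.9 and 88.0 CPM in Dlx2OE. All 3 Dlx2OE samples were higher, by a log2 fold change of 0.41 (SE 0.147) that did not pass the adjustment (edgeR adjusted p = 0.119). Timp3 lies within Syn3, and 21.3% of its exon sequence overlaps that gene. The union mode of counting sets aside reads over shared exons as ambiguous where strand is not used. Such reads would be missing from the Timp3 counts, and the strand setting is not given. Timp4, which lies within Syn2, was left out by the filter on low counts, and had 9, 18 and 10 counts in WT and 1, 5 and 8 counts in Dlx2OE. Its WT samples were all above the Dlx2OE samples, at counts close to the detection level.

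Among the MMPs, 0 of the 12 tested passed edgeR, and 4 had an unadjusted p under 0.05, as did 5172 of all 17514 genes. DESeq2 passed 1 as higher and 2 as lower, where 5.54% and 7.21% of all genes passed. Mmp2 (ENSMUSG00000031740, chromosome 8, 92827291 to 92853420) had 233, 221 and 248 CPM in WT and 180, 188 and 179 CPM in Dlx2OE. Each Dlx2OE sample was below each WT sample, and the spread within a genotype was small. The log2 fold change of Mmp2 was -0.36 (SE 0.0948, 95% interval -0.58 to -0.14), with an edgeR adjusted p of 0.0582 and a DESeq2 adjusted p of 0.0244. Over its alternatives in edgeR the adjusted p of Mmp2 ran from 0.0551 to 0.176. In FPKM this difference was 69.5 ± 3.90 against 54.0 ± 1.43 (SD, n = 3 each), which made Mmp2 the gene with the largest change in absolute level among the members.

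Mmp9, the other gelatinase, which osteoclasts, macrophages and neutrophils release, had 1.98, 4.21 and 4.30 CPM in WT and 1.76, 1.24 and 1.99 CPM in Dlx2OE. WT sample 1 fell within the Dlx2OE range, and the log2 fold change was -1.07 (SE 0.357, edgeR adjusted p = 0.0992, DESeq2 adjusted p = 0.0467). With DESeq2 the log2 fold change of -1.08 was past the study's threshold, and the paper names Mmp9 in its downregulated extracellular matrix terms. The macrophage marker sums were lower in the same samples, and their part in the Mmp9 values was not tested. The summed gelatinase level was 70.4 ± 3.95 FPKM in WT and 54.5 ± 1.33 FPKM in Dlx2OE (SD, n = 3 each), and nearly all of it was Mmp2.

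Of the membrane-bound MMPs, 7 of 7 were tested, 4 with a positive and 3 with a negative log2 fold change, and none passed edgeR. An unadjusted p under 0.05 was found for 2 of them (5172 of all 17514 genes), and DESeq2 passed 1 as higher (5.54% of all genes). Mmp14, the activator of Mmp2, had 175, 197 and 225 CPM in WT and 245, 194 and 211 CPM in Dlx2OE. These values overlap, and the log2 fold change of 0.13 had a 95% interval of -0.18 to 0.43 (edgeR adjusted p = 0.557). Mmp17, which is held to the membrane by a lipid anchor, had 3.69, 3.82 and 5.04 CPM in WT and 10.6, 5.73 and 7.94 CPM in Dlx2OE. All Dlx2OE samples were higher, with a log2 fold change of 0.95 (SE 0.268), an edgeR adjusted p of 0.0694 and a DESeq2 adjusted p of 0.0123.

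Mmp24, a membrane-bound protease of neurons, was singled out after its values were seen, because it had the largest log2 fold change of all members without passing. It had 5, 35 and 5 counts in WT and 3, 132 and 384 counts in Dlx2OE. Dlx2OE sample 1 was below every WT sample, and samples 2 and 3 were above all others. Of its exon sequence, 13.6% overlaps another gene. The log2 fold change was 3.62 (SE 1.37, edgeR adjusted p = 0.131, DESeq2 adjusted p = 0.121), and it was 2.11 without Dlx2OE sample 3 and 4.18 without Dlx2OE sample 1, where it passed at an adjusted p of 0.0203. The summed level of 10 neuronal markers moved with it, at 110, 403 and 233 CPM in WT and 217, 770 and 1731 CPM in Dlx2OE. All 10 neuronal markers were detected and had a positive log2 fold change, and 0 passed edgeR or DESeq2. An unadjusted p under 0.05 was found for 3 of these markers, against 5172 of all 17514 genes. Adamtsl4, also singled out after its values were seen, had 31, 39 and 45 counts in WT and 40, 78 and 143 counts in Dlx2OE, the highest again in Dlx2OE sample 3. Its log2 fold change was 1.26 (SE 0.475, edgeR adjusted p = 0.130). Dlx2OE sample 3 is also the library with 14.7% of read pairs outside genes, and the part of nerve tissue and of this library in both values was not tested.

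**Figure D3:**
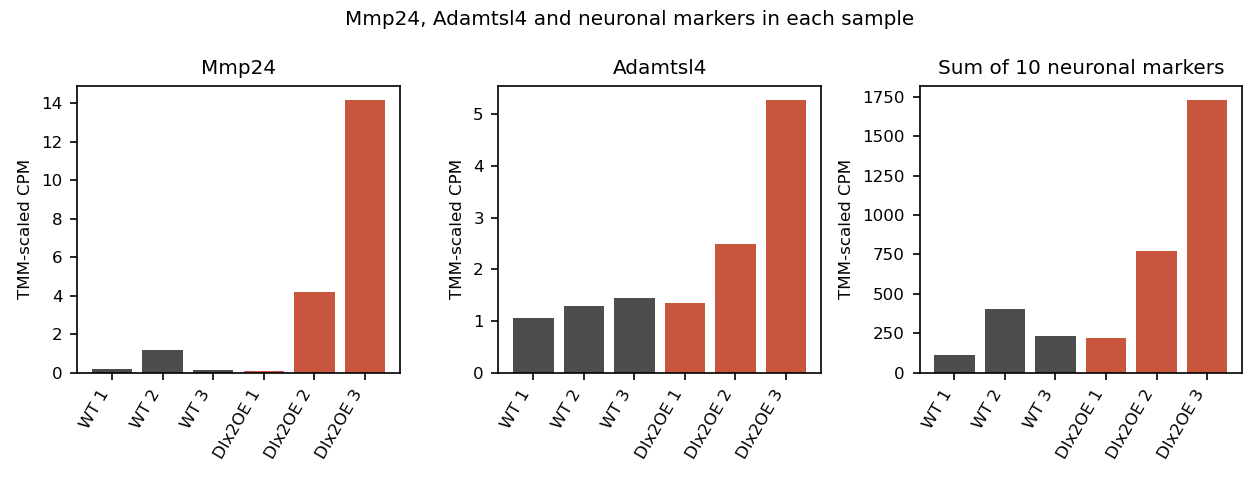
TMM-scaled CPM of Mmp24, of Adamtsl4 and of the sum of 10 neuronal markers in each of the 6 samples, WT dark and Dlx2OE red, 1 bar a sample and axes from 0. The 3 panels share their highest sample, Dlx2OE 3, and next highest, Dlx2OE 2, and Dlx2OE 1 lies within or below the WT range in each.

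Of the other secreted MMPs outside the cluster, Mmp11 had 81.1, 102 and 105 CPM in WT and 92.3, 69.0 and 66.2 CPM in Dlx2OE. Dlx2OE sample 1 lay within the WT range, and the log2 fold change was -0.34 (95% interval -0.70 to 0.02, edgeR adjusted p = 0.191). Mmp19 and Mmp28, the rest of this class and named outside the rule, were tested with log2 fold changes of 0.04 and -0.23, and 28.3% of the exon sequence of Mmp19 overlaps another gene. Within this class 0 of 3 passed edgeR, none had an unadjusted p under 0.05, and none passed DESeq2.

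Among the ADAMTS proteases that cleave proteoglycans such as versican and aggrecan, 6 of 7 had a positive log2 fold change, with a median of 0.24. Over all genes, 8807 of 17514 were positive. Of the 7 proteoglycanases, 1 rose, Adamts20, where 2.99% of all genes rose. In 4, Adamts1, Adamts4, Adamts9 and Adamts20, all Dlx2OE samples were above all WT samples, as in 16.7% of all genes. Adamts20 (ENSMUSG00000022449, chromosome 15, 94270163 to 94465418, reverse strand) encodes a versican-cleaving protease, whose loss in mice gives a white belt of unpigmented skin. It had 529, 496 and 713 counts in WT and 978, 951 and 844 counts in Dlx2OE, or 18.1, 16.5 and 22.9 CPM against 33.0, 30.3 and 31.2 CPM. The Dlx2OE samples lay close together above all WT samples, 1.65-fold higher (95% interval 1.31 to 2.07). The log2 fold change of Adamts20 was 0.72 (SE 0.144, edgeR adjusted p = 0.0327, DESeq2 adjusted p = 0.00133). The marker sums of facial mesenchyme were higher in the same samples, and their part in the rise was not tested. Single markers went either way, 6 of the 10 with a positive log2 fold change (Twist1 and Tfap2a passed) and 4 with a negative one, of which Barx1 at -0.68 was lower without overlap (edgeR adjusted p = 0.153). Adamts20 kept its direction without any 1 sample. Its adjusted p was 0.109 and 0.133 without WT samples 1 and 2, 0.0926 and 0.0831 without Dlx2OE samples 2 and 3, and 0.0138 and 0.0397 without WT sample 3 and Dlx2OE sample 1. After a correction for gene length and GC content it was 0.0536, with a log2 fold change of 0.57.

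Adamts9, the closest relative of Adamts20, had 55.1, 47.1 and 67.6 CPM in WT and 73.9, 71.0 and 77.1 CPM in Dlx2OE. It is named here after its values were seen, with a log2 fold change of 0.39 (SE 0.136, edgeR adjusted p = 0.112). Adamts4, an aggrecanase, was named on the same ground and had 12.8, 12.3 and 17.4 CPM in WT and 28.5, 21.6 and 20.1 CPM in Dlx2OE. Its log2 fold change of 0.72 (SE 0.193) did not pass edgeR (adjusted p = 0.0619) and passed DESeq2 (adjusted p = 0.0112). Adamts1, the most abundant of these proteases per length in WT, had 50, 38 and 50.9 CPM in WT and 54.9, 52.2 and 56.7 CPM in Dlx2OE (log2 fold change 0.24, edgeR adjusted p = 0.247). The summed level of the 7 proteoglycanases was 23.1, 19.6 and 26.3 FPKM in WT and 28.7, 28.1 and 29.9 FPKM in Dlx2OE, and all Dlx2OE samples were above all WT samples. Their substrate versican (Vcan), singled out after its values were seen, was at 1143 ± 185 CPM in WT against 1348 ± 80.5 CPM in Dlx2OE (log2 fold change 0.24, edgeR adjusted p = 0.351).

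The 3 procollagen N-propeptidases, which trim the amino ends of fibrillar procollagens, showed 0 calls in edgeR and in DESeq2 and none at an unadjusted p under 0.05. Adamts3, the most abundant per length in WT, was at 10.7 ± 2.22 CPM there and 12 ± 1.58 CPM in Dlx2OE, and Adamts2 was at 13.6 ± 3.82 CPM and 10.7 ± 2.64 CPM (SD, n = 3 each). Their intervals for the log2 fold change were -0.28 to 0.62 and -0.97 to 0.27.

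Among the other ADAMTS genes, 8 of 9 were tested, 1 rose and 1 fell, where 2.99% and 3.46% of all genes did so. Of their log2 fold changes, 3 were positive and 5 negative. Adamts19 (ENSMUSG00000053441), a protease with few known substrates that pairs in sequence with Adamts17, had 387, 306 and 432 counts in WT and 778, 765 and 508 counts in Dlx2OE. In scaled values it had 13.2, 10.2 and 13.9 CPM against 26.3, 24.4 and 18.8 CPM, with all Dlx2OE samples above all WT samples. Adamts19 was 1.86-fold higher (95% interval 1.39 to 2.49), with a log2 fold change of 0.90 (SE 0.182, edgeR adjusted p = 0.0333), just short of the threshold of 1. Its partner Adamts17, named for this pairing after the values were seen, had 62.3 ± 16.6 CPM in WT, had 50.8 ± 14.7 CPM in Dlx2OE and did not pass (edgeR adjusted p = 0.450). The adjusted p of Adamts19 was 0.0950, 0.133 and 0.110 without WT samples 1 and 2 and Dlx2OE sample 2, 0.0362, 0.0402 and 0.0386 without the others, and 0.115 after the correction for length and GC content, where its log2 fold change was 0.63.

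Adamts16 (ENSMUSG00000049538, chromosome 13, 70727802 to 70841811, reverse strand) encodes a protease that can cleave fibronectin. It had 78, 169 and 164 counts in WT and 54, 32 and 41 counts in Dlx2OE, or 2.67, 5.61 and 5.26 CPM against 1.82, 1.02 and 1.51 CPM. WT sample 1 lay nearest to the Dlx2OE samples, which were all lower. Adamts16 was 3.11-fold lower in Dlx2OE, the largest change among the members that passed (log2 fold change -1.63, SE 0.360, edgeR adjusted p = 0.0402, DESeq2 adjusted p = 0.000597). The adjusted p of Adamts16 was 0.156 and 0.0649 without WT samples 2 and 3, 0.121 and 0.104 without Dlx2OE samples 2 and 3, and 0.0498 and 0.0284 without WT sample 1 and Dlx2OE sample 1. Adamts18, the nearest relative of Adamts16 and named for that reason after the values were seen, had 38.2, 60.6 and 53.2 CPM in WT and 38.7, 19.2 and 21.7 CPM in Dlx2OE. Dlx2OE sample 1 overlapped WT sample 1, and the log2 fold change was -0.93 (SE 0.280, edgeR adjusted p = 0.0798, DESeq2 adjusted p = 0.00617). Adamts10, the most abundant per length in WT and a protease bound to fibrillin microfibrils, was measured at 84.1 ± 4.50 CPM (WT) and 87.0 ± 18.2 CPM (Dlx2OE; SD, n = 3 each). Its difference of 0.05 on the log2 scale (edgeR adjusted p = 0.853) turned to -0.22 after the correction for length and GC content.

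**Figure D4:**
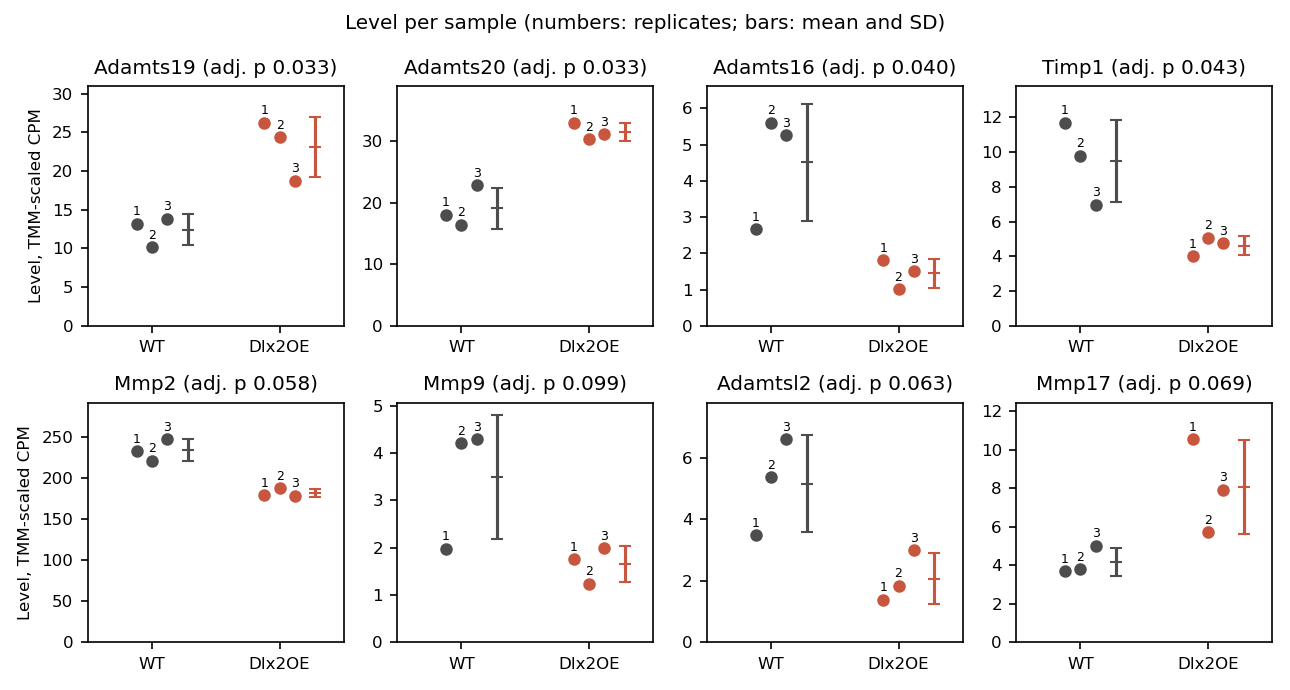
TMM-scaled CPM of 8 genes in each sample, with the replicate number beside each point and bars for the mean and SD (n = 3); every axis starts at 0. In the upper row the genotypes are separate for Adamts19, Adamts20, Adamts16 and Timp1, which passed, and in the lower row they are separate for Mmp2, Adamtsl2 and Mmp17 and overlap for Mmp9.

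Of the ADAMTS-like genes, 5 of 5 were tested and 0 passed edgeR, with 3 at an unadjusted p under 0.05 and 2 lower by DESeq2. Over all genes, 5172 of 17514 had an unadjusted p under 0.05, and DESeq2 passed 7.21% as lower. Adamtsl2, which binds fibrillin microfibrils and latent TGF-beta binding protein, had 102, 162 and 206 counts in WT and 41, 58 and 81 counts in Dlx2OE. The genotypes did not overlap, and the log2 fold change was -1.32 (SE 0.358), with an edgeR adjusted p of 0.0634 and a DESeq2 adjusted p of 0.00439. Adamtsl2 passed edgeR without the filter on low counts (adjusted p = 0.0201) and after the correction for length and GC content (adjusted p = 0.0310). Adamtsl3, named after its values were seen, had 110, 213 and 205 counts in WT and 68, 102 and 97 counts in Dlx2OE (log2 fold change -0.93, SE 0.303, edgeR adjusted p = 0.0948, DESeq2 adjusted p = 0.0291). Adamtsl1, the most abundant per length in WT, was measured at 19.1 ± 6.97 CPM (WT) and 21.9 ± 7.16 CPM (Dlx2OE; SD, n = 3 each), with a log2 fold change of 0.20 (95% interval -0.52 to 0.92).

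**Figure D5:**
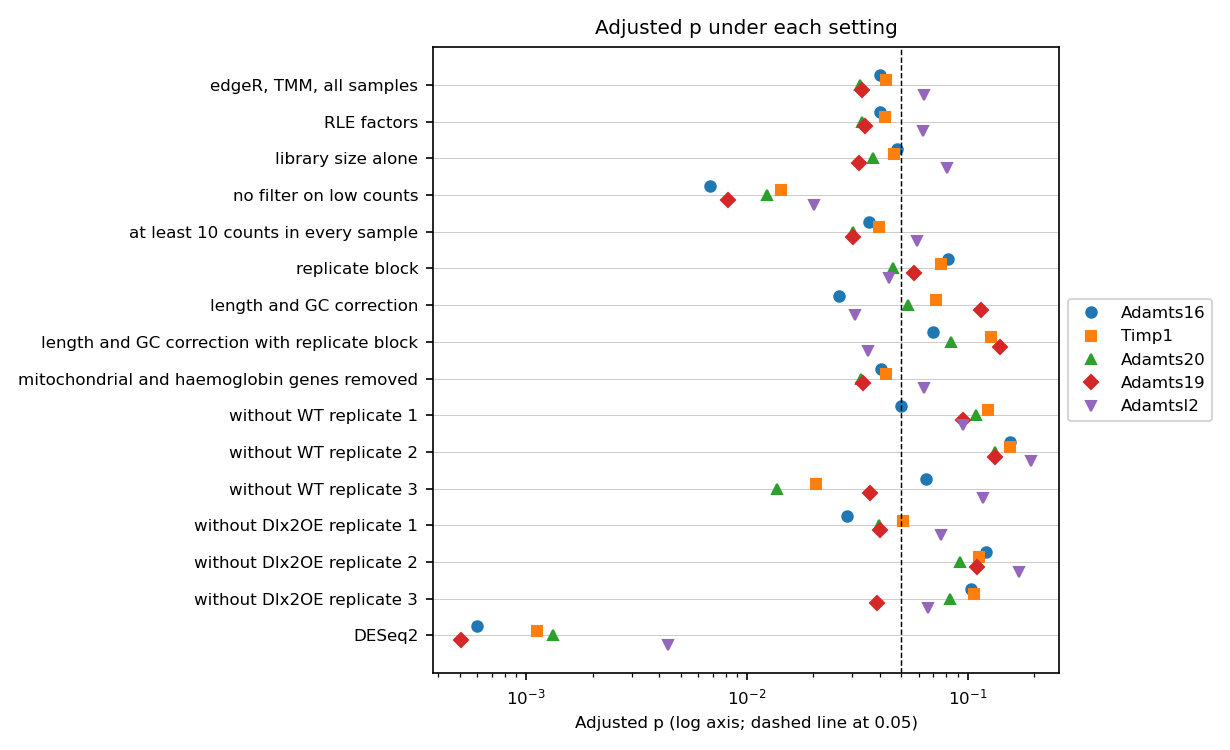
Adjusted p of the 4 genes that passed and of Adamtsl2 under each way of fitting, on a log axis with a dashed line at 0.05. All 5 lie left of the line with DESeq2 and without the filter on low counts, and all 5 lie right of it without WT replicate 2 and without Dlx2OE replicate 2.

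The neighbouring genes of the pathway were taken from 3 lists. Of 28 activators and other regulators of these proteases, 26 were tested, 0 rose and 4 fell by edgeR. At an unadjusted p under 0.05, 1 was higher and 10 were lower, and DESeq2 passed 1 as higher and 7 as lower. Over all genes the shares lower were 3.46% by edgeR and 7.21% by DESeq2, and 5172 of 17514 had an unadjusted p under 0.05 in either direction. Over the 26 the log2 fold change had a median of -0.40, against 0.0028 for all genes. Pcsk6, a convertase that removes inhibitory propeptides, had 21.2, 22 and 23.9 CPM in WT and 13.4, 7.58 and 11.0 CPM in Dlx2OE (log2 fold change -1.07, edgeR adjusted p = 0.0305). Tgfb2, a growth factor that controls many matrix genes, had 85.6, 87.6 and 110 CPM against 59.9, 65.9 and 59.7 CPM (log2 fold change -0.61, edgeR adjusted p = 0.0309). Tgfb3, the related factor required for palatal fusion, had 30.8, 37.4 and 45.7 CPM against 19.8, 22.9 and 23.3 CPM (log2 fold change -0.79, edgeR adjusted p = 0.0332). All 3 genes were lower in each Dlx2OE sample than in any WT sample, as were 17.3% of all genes. Etv4, an ETS factor known to act on MMP promoters, had 26.6, 31.1 and 27.7 CPM in WT and 20.2, 21.1 and 18.6 CPM in Dlx2OE, again without overlap (log2 fold change -0.51, edgeR adjusted p = 0.0449).

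Of 24 other proteases that process matrix, 22 were tested, 2 rose and 1 fell by edgeR, where 2.99% and 3.46% of all genes did so. At an unadjusted p under 0.05, 4 were higher and 5 were lower, where 5172 of all 17514 genes passed in either direction. DESeq2 passed 3 as higher and 3 as lower, where 5.54% and 7.21% of all genes passed. Tll1, a tolloid protease that trims the carboxyl ends of procollagens and cleaves the BMP inhibitor chordin, had 3.18, 5.21 and 6.22 CPM in WT and 25.3, 12.1 and 10.9 CPM in Dlx2OE (log2 fold change 1.73, edgeR adjusted p = 0.0402). Adam33, a membrane-anchored metalloprotease of mesenchyme, had 1.85, 2.32 and 2.41 CPM in WT and 6.75, 4.43 and 4.17 CPM in Dlx2OE (log2 fold change 1.22, edgeR adjusted p = 0.0395). For both, Dlx2OE sample 1 was the highest and all Dlx2OE samples exceeded all WT samples, as in 16.7% of all genes. Ctsk, a lysosomal collagenase known from osteoclasts, had 19.4, 23.6 and 18.2 CPM in WT and 14.2, 12.9 and 12.9 CPM in Dlx2OE (log2 fold change -0.61, edgeR adjusted p = 0.0479). Of 25 matrix substrates, 23 were tested and 0 passed edgeR, while 5 had an unadjusted p under 0.05 and DESeq2 passed 1 as lower. Over all genes, 5172 of 17514 had such a p and DESeq2 passed 7.21% as lower. Over the substrates the log2 fold change had a median of 0.05.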

How the data were processed

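Poly(A) RNA libraries of the E12.5 maxillary prominence, 3 WT and 3 Dlx2OE, were made from littermates, 6 by the paper's methods and 7 by the labels. The authors mapped read pairs to mm10 with STAR 2.7.3a, counted them per gene with htseq-count of HTSeq 0.12.4 in union mode, and deposited raw counts, without normalization. The annotation release and strand setting of the counting are not given in the sources used here. The files list 53801 genes and 5 summary lines, which were used only to describe libraries. Symbols, positions and exon lengths come from GENCODE M21 (GRCm38), where 53620 identifiers were found, and promoter windows from RefSeq.

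The main test was edgeR 4.0.16 under R 4.3.3 (filterByExpr with a minimum count of 10, TMM scaling, quasi-likelihood F test on genotype, Benjamini-Hochberg adjustment over the 17514 genes kept). The log2 fold change was divided by the square root of F to give the SE, and intervals are at 95%. The floor of 3 counts covers counting error only. FPKM is TMM-scaled CPM per kilobase of merged exons. DESeq2 1.42.0, other scalings and filters, a replicate block, a correction for length and GC content by loess (span 0.5) and the removal of each sample were the alternatives. An exact permutation test of 3 samples against 3 cannot reach 0.05 and was not used. Scripts were tested on simulated counts, and Python 3.11.15 with matplotlib 3.10.9 drew the figures.

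The members and all gene lists were chosen with earlier results of these data known. Named with values are the members with an adjusted p under 0.05, Mmp2, Mmp9 and the TIMPs, the most abundant and the smallest-p member of each class, members within 0.1 of the fold-change threshold among those that passed, up to 4 genes of each related list that passed, and Dlx2. Other genes given with values, cell type markers and genes in the order of levels included, were chosen after their values were seen.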

Additional observations from a re-analysis of the deposited data

Results flagged for a closer look

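In Dlx2OE sample 3, 14.7% of read pairs lay outside annotated genes, in a line of the count files that no comparison above uses, and this exceeds the 5.03% to 5.43% of the WT samples. In raw counts, Mmp24, Adamtsl4, Mmp15 and Adamts5 were highest in this sample, the smallest library. In scaled CPM they were also highest in it, as were Adamts1, Adamts7, Adamts9, Adamts10, Adamts15, Mmp16, Mmp19 and Timp3. Without Dlx2OE sample 3, 1 member (Adamts19) was higher and 0 were lower at an edgeR adjusted p under 0.05. Over all genes, 315 of 17902 passed in that fit, against 1130 of 17514 with all samples.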

How the results depend on the processing

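Counts of members at an adjusted p under 0.05 were 2 higher and 2 lower, with 0 called upregulated and 2 downregulated. With RLE factors, with at least 10 counts in every sample and without mitochondrial and haemoglobin genes these 4 counts were the same, and library size alone left 1 downregulated. Without a filter on low counts they were 5, 4, 1 and 3, and with DESeq2 4, 7, 0 and 4. The length and GC correction gave 0 higher and 2 lower (Adamts16 and Adamtsl2), so that Adamts19, Adamts20 and Timp1 lost the call. With the replicate block also it gave 0 higher, 1 lower and 1 downregulated. Over all genes, 1130 of 17514 passed in the main fit, 758 after this correction, 577 with the block as well and 961 with the block alone. Leaving out 1 sample gave 0 to 4 higher, 0 to 2 lower, 0 to 2 upregulated and 0 to 2 downregulated, and 0 members passed without WT sample 2 or without Dlx2OE sample 2. The calls over all genes changed in the same fits. They were 79 of 18056 without WT sample 2, 213 of 17986 without Dlx2OE sample 2 and 315 of 17902 without Dlx2OE sample 3. Without WT sample 1 they were 180 of 18159, without WT sample 3 2091 of 18171 and without Dlx2OE sample 1 1944 of 18194. Deviations from the genotype means gave no sign of pairing by replicate number (same-numbered correlations -0.0718, -0.211 and 0.0731). Not every sample correlated best with its own number, and the highest value was 0.345 for WT sample 1 with Dlx2OE sample 2. Deviations within a genotype cancel out, so these values are tied to one another and cannot settle whether samples were paired. The replicate block left 1 higher (Adamts20), 1 lower and 1 downregulated (Adamtsl2 for both). Over 18 genes and 15 alternatives, 221 of 269 values kept direction and side of the threshold, 26 lost the call, 11 gained it and 11 changed sign. Only the 4 genes that passed in the main fit had a call to lose, and all 26 losses were theirs. The 221 values include those of the genes without a call in the main fit. The sign changes were Adamts10 (-0.22 after the length and GC correction, -0.24 with the block, -0.051 to 0.20 without 1 sample), Adamtsl1 (-0.093, -0.096 and -0.097 to 0.48) and Timp2 (0.018 with library size alone, -0.15 to 0.17 without 1 sample). The cause was not tested. The filter on low counts left out 12 members, and 47 were tested without it.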
